A study of Mus musculus with 6 samples.

Results

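Mitosis and spindle genes were examined in whole ovaries of Bnc1+/+ and Bnc1tr/tr mice. The group holds 36 genes, chosen by symbol for their roles in cell division, out of 44788 genes listed in the count table. All 36 were found by symbol and all 36 passed the filter on low counts. RNA-seq libraries came from 3 wild-type ovary samples (Bnc1+/+, replicates 1, 4 and 7) and 3 homozygous mutant ovary samples (Bnc1tr/tr, replicates 1, 2 and 3), all from C57BL/6 J mice labelled 8 weeks old. The Bnc1tr/tr allele is a frameshift mutation carried by every cell of the animal. It truncates basonuclin 1, a zinc finger transcription factor that the paper describes in basal keratinocytes as well as in germ cells. The study used the allele as a mouse model of primary ovarian insufficiency. The comparison thus asks how the mutation alters RNA levels in the ovary. Neither the stage of the oestrous cycle nor any pooling of ovaries or animals is given in the sources used here, so the p-values measure only the spread between these samples.

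Before a cell divides it makes a wave of RNAs in the G2 and M phases. Cyclins with Cdk1 start mitosis, Aurora and Polo kinases build the spindle, kinetochores tie chromosomes to microtubules, and the spindle checkpoint holds back the anaphase-promoting complex until every chromosome is attached. In the adult ovary the dividing cells are mostly granulosa cells of growing follicles. Fully grown oocytes also store many of these RNAs for meiosis, so the RNA of these genes in a whole ovary comes from more than mitotic cells.

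Total counts were between 25247770 and 34406296 per ovary, and 19423 genes were tested. Each of the 36 genes had between 224 and 5296 counts in every ovary. The Bnc1+/+ ovaries had 375, 444 and 381 counts of Bnc1 itself and the Bnc1tr/tr ovaries 527, 355 and 326, with a log2 fold change (Bnc1tr/tr over Bnc1+/+) of 0.12 (SE 0.18, adjusted p = 0.733, edgeR). A frameshift need not lower the RNA, so this level does not check the genotype labels. In whole-ovary RNA, a difference in the share of dividing cells and a difference in RNA per dividing cell cannot be told apart.

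Late cell cycle genes are known for a promoter element called the cell cycle genes homology region (CHR), which most often reads TTTGAA and sometimes has the form TTCGAA, and for the CCAAT boxes bound by NF-Y. Both elements were searched on both strands in RefSeq promoter windows (GRCm38.p6, from 250 bases before to 50 bases after the start site), which matched 30 of the 36 genes. TTTGAA was present for 22 of the 30 genes (73.3%), against 20.2% of 27025 genes with a window and 14.4% of 11796 such genes among those tested. TTCGAA was present for 3 of the 30 genes, against 1.80% and 2.37%. CCAAT was present for 22 of the 30 genes (73.3%), against 41.1% and 42.1%. A CHR of either form together with a CCAAT was present for 20 of the 30 genes (66.7%), against 8.61% and 6.76%. These shares describe letters in a window, not bound sites. The position of the TTTGAA differed between genes. In Plk1, Aurka, Cenpa, Ttk and others the one nearest the start site lay after it, and Birc5, Nuf2 and others had none. Stretches of Cdk1, Cdc20, Espl1, Kif11 and Top2a, where it lay before the start site, let an arrangement with CCAAT be read directly. A stretch of Bub1b is included because this gene has the largest genotype difference among the 36 genes. Each stretch holds the last 90 bases before the start site (for Bub1b, the last 200). It is written 5′ to 3′ on the strand of the gene, with every CHR and CCAAT box in capitals. On the other strand the CHR reads TTCAAA. The CCAAT box then reads ATTGG.
Cdk1, chr10:69352913-69353002, minus strand: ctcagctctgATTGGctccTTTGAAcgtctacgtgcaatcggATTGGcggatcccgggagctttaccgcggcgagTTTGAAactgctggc
Cdc20, chr4:118437344-118437433, minus strand: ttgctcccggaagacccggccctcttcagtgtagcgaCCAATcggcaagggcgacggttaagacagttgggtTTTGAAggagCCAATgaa
Espl1, chr15:102296203-102296292, plus strand: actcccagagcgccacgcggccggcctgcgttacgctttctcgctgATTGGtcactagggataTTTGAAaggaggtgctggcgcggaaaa
Kif11, chr19:37376292-37376381, plus strand: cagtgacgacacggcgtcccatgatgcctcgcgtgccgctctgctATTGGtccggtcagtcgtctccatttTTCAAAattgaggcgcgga
Top2a, chr11:99024190-99024279, minus strand: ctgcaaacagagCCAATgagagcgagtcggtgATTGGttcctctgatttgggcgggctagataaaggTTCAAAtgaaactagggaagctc
Bub1b, chr2:118598011-118598210, plus strand: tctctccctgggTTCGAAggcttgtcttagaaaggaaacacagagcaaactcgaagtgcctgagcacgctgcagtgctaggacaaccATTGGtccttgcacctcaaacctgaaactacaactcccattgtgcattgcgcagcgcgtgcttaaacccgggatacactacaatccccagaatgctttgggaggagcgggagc

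In Cdk1, Cdc20, Espl1, Kif11 and Top2a, a CCAAT lay upstream of the TTTGAA nearest the start site, separated from it by 28, 30, 12, 21 and 30 bases, respectively. These spacings describe the named genes only. In Mki67, Prc1 and Ube2c the nearest TTTGAA also lay before the start site, with a CCAAT upstream of it. In Kif2c it lay before the start site too, but the window held no CCAAT. In Bub1b the TTCGAA lay upstream of the CCAAT, and the window also holds a TTTGAA after the start site, outside the stretch shown.

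All 36 genes had higher mean levels in Bnc1tr/tr ovaries, but by small amounts, and no gene passed the test. With edgeR's quasi-likelihood test and Benjamini-Hochberg adjustment over all genes tested, 0 of 36 were called higher and 0 of 36 lower, where 7.06% of all genes tested were called in either direction, 2.88% higher and 4.19% lower. Adjusted p-values of the 36 genes ran from 0.0569 to 0.976. The log2 fold change was above 0 for 36 of 36 genes, against 52.6% of all genes tested. Its median was 0.26, a fold change of 1.20, against a median of 0.018 over all genes tested. Each gene's 95% interval lay between -1 and 1, with the lowest bound at -0.41 and the highest at 0.98, so a doubling or a halving of the mean level is outside the interval of every one of the 36 genes. At an unadjusted p under 0.05 (edgeR) stood 9 genes (Aurka, Plk1, Bub1b, Ttk, Pttg1, Espl1, Cenpa, Cenpf and Mki67; 25%), where 24.2% of all genes tested did in either direction. All 9 were higher in Bnc1tr/tr ovaries, and the share of all genes tested in that direction alone was not computed. For 4 genes (Plk1, Bub1, Bub1b and Pttg1; 11.1%) every Bnc1tr/tr ovary lay above every Bnc1+/+ ovary, against 15.0% of all genes tested, and for 0 genes did every Bnc1tr/tr ovary lie below.

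**Figure D1:**
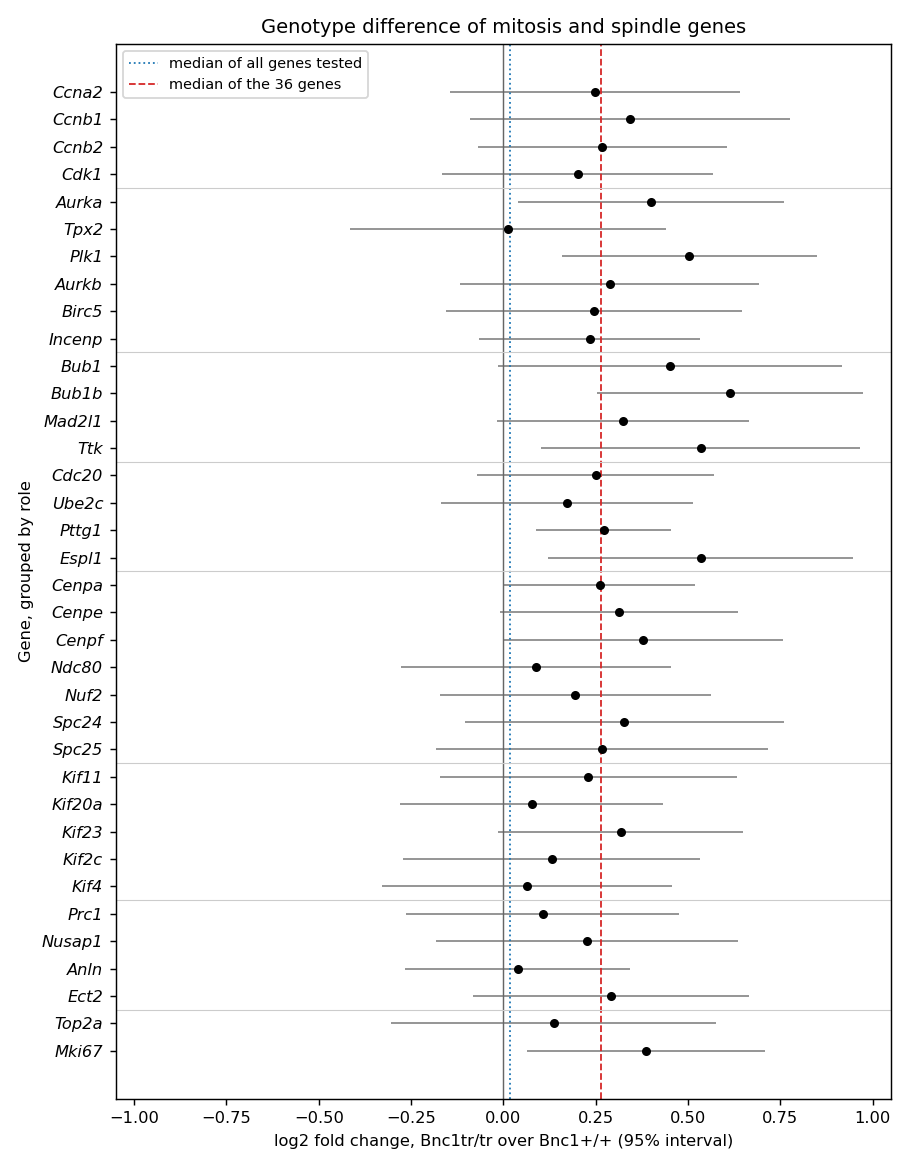
Log2 fold change (Bnc1tr/tr over Bnc1+/+, x axis) of each of the 36 genes (y axis, grouped by role), with points for the edgeR estimate and bars for its 95% interval. All 36 points lie to the right of 0 and 27 of the intervals reach below 0. The dashed line marks the median of the 36 genes (0.26) and the dotted line that of all genes tested (0.018).

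Ovaries of the same genotype differed from each other for most of these genes, and in much the same order. The levels below are in CPM, the usual unit of counts relative to the total of the library, with totals adjusted by TMM. Summed over the 36 genes, the level was 1521, 1378 and 1189 CPM in Bnc1+/+ replicates 1, 4 and 7, and 1620, 1357 and 1933 CPM in Bnc1tr/tr replicates 1, 2 and 3. Bnc1tr/tr replicate 2 was thus below 2 of the 3 Bnc1+/+ ovaries, and the genotypes overlapped. Group means were 1363 ± 167 and 1637 ± 288 CPM (SD, n = 3 each).

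Bnc1tr/tr replicate 3 was the highest ovary for 30 of 36 genes (16.0% of all genes tested) and the first or second for every gene. Bnc1+/+ replicate 7 was the lowest ovary for 33 of 36 genes (18.6% of all genes tested) and the fifth or sixth for every gene. Both held for 28 of 36 genes, against 6.18% of all genes tested. Bnc1tr/tr replicate 2 was lower than Bnc1+/+ replicate 1 for 31 of 36 genes, against 49.7% of all genes tested. These ovaries were singled out from the same values, and genes that vary together are not separate observations, so the shares only describe the order. The median over the 36 genes of the level divided by the Bnc1+/+ mean was 1.12, 1.01 and 0.864 in Bnc1+/+ replicates 1, 4 and 7 and 1.17, 0.978 and 1.42 for Bnc1tr/tr replicates 1, 2 and 3. With Bnc1tr/tr replicate 3 left out, the median log2 fold change was 0.13 and 29 of 36 genes were above 0. Without Bnc1+/+ replicate 7 it was 0.18, with 31 of 36 above 0. The other left-out ovaries gave 0.26 to 0.37 and kept 36 of 36 above 0.

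**Figure D2:**
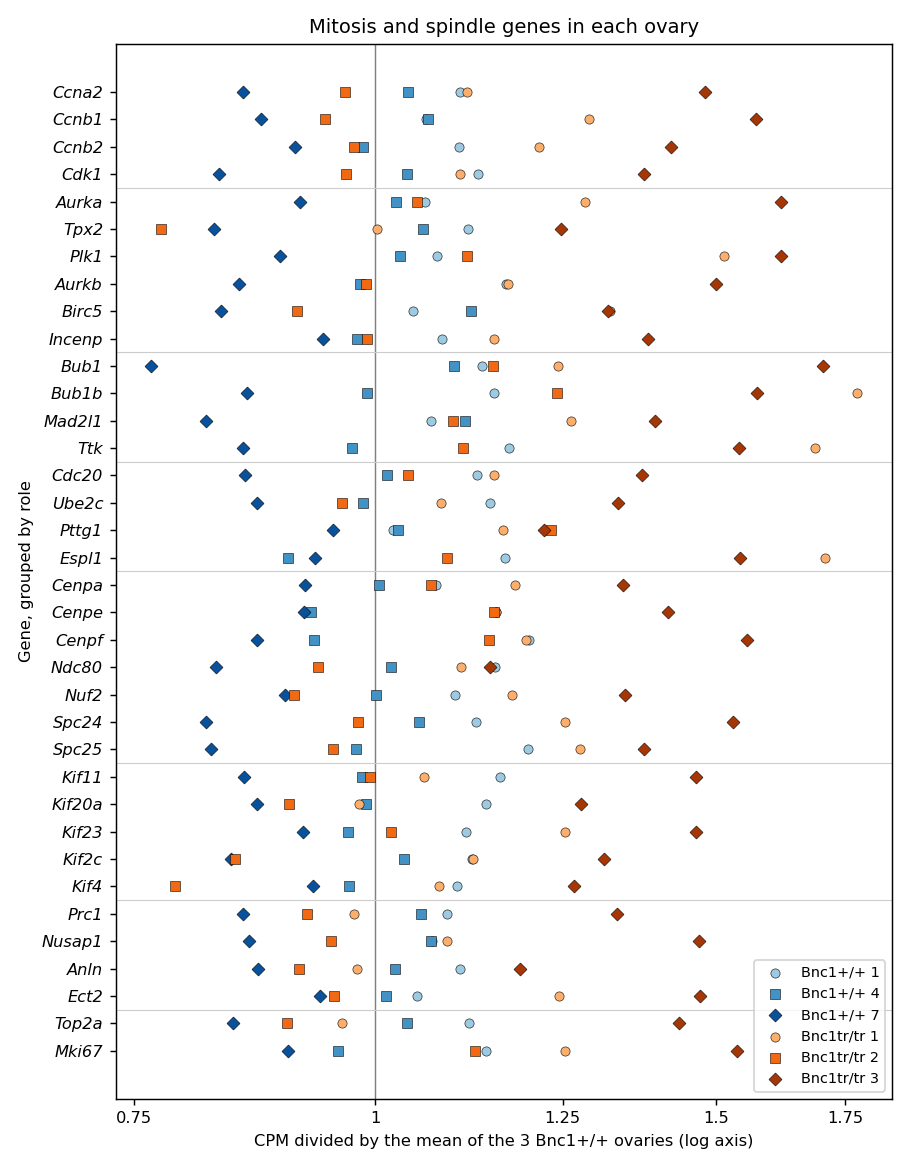
Level of each of the 36 genes (y axis, grouped by role) in each of the 6 ovaries, as CPM divided by the mean of the 3 Bnc1+/+ ovaries (x axis, log scale). Blue marks are Bnc1+/+ and orange marks Bnc1tr/tr ovaries. Bnc1tr/tr replicate 3 (dark orange diamonds) is highest for 30 genes and Bnc1+/+ replicate 7 (dark blue diamonds) lowest for 33, while Bnc1tr/tr replicate 2 (orange squares) lies among the Bnc1+/+ ovaries for most genes.

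Cyclins and Cdk1 drive the entry into mitosis. The 4 genes (Ccna2, Ccnb1, Ccnb2, Cdk1) had log2 fold changes of 0.20 to 0.34, and none passed the test. Cdk1, the kinase that the mitotic cyclins activate, was at 78.0, 71.6 and 57.3 CPM in Bnc1+/+ and 76.3, 66.6 and 94.9 CPM in Bnc1tr/tr ovaries, with a log2 fold change of 0.20 (SE 0.16, edgeR adjusted p = 0.484). Only Bnc1tr/tr replicate 3 lay outside the Bnc1+/+ range. Ccnb1, cyclin B1, was at 19.9, 20.0 and 16.4 against 24.2, 17.7 and 29.5 CPM, with a log2 fold change of 0.34 (SE 0.19, edgeR adjusted p = 0.308). Its Bnc1tr/tr replicate 2 again lay within the Bnc1+/+ range.

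The mitotic kinases and the chromosomal passenger complex (Aurkb with Incenp and Birc5, which corrects wrong attachments), together with Aurka and its spindle activator Tpx2, had log2 fold changes of 0.013 to 0.50 over 6 genes. Plk1, the Polo-like kinase of centrosome maturation and cytokinesis (ENSMUSG00000030867.7, chr7:122159439-122169873, GRCm38), was at 38.3, 36.6 and 31.7 CPM in Bnc1+/+ and 53.8, 39.6 and 57.6 CPM in Bnc1tr/tr ovaries. The genotypes did not overlap, although Bnc1tr/tr replicate 2 was only just above the highest Bnc1+/+ ovary. Its log2 fold change was 0.50 (SE 0.15), with an edgeR adjusted p of 0.0861. Incenp, the scaffold of the passenger complex, was at 66.8, 60.4 and 58.0 against 71.1, 61.1 and 85.4 CPM, with a log2 fold change of 0.23 (SE 0.13, edgeR adjusted p = 0.317). Tpx2 had the smallest difference of the 36 genes, with means of 59.7 ± 9.21 and 60.2 ± 14.1 CPM (SD, n = 3 each) and a 95% interval of the log2 fold change from -0.41 to 0.44.

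The spindle checkpoint genes had the highest median of the role groups, at 0.49, with Bub1 at 0.45, Bub1b at 0.61, Mad2l1 at 0.32 and Ttk at 0.53. Bub1b encodes BubR1, the subunit of the mitotic checkpoint complex that inhibits Cdc20 (ENSMUSG00000040084.9, chr2:118598211-118641591, GRCm38). It was at 90.9, 78.2 and 67.8 CPM in Bnc1+/+ and 140, 98.0 and 124 CPM in Bnc1tr/tr ovaries. Every Bnc1tr/tr ovary was above every Bnc1+/+ ovary, and Bnc1tr/tr replicate 1 was the highest. The log2 fold change of 0.61 (SE 0.16, 95% interval 0.25 to 0.98) missed the threshold with an edgeR adjusted p of 0.0569, the lowest of the 36 genes. DESeq2 gave an adjusted p of 0.0042 for the same counts, and edgeR without the filter on low counts gave 0.0342. Over the 12 alternatives its log2 fold change was between 0.49 and 0.74, with adjusted p-values from 0.0042 to 0.192. Ttk, the kinase Mps1 at the top of the checkpoint, was at 13.9, 11.5 and 10.1 against 20.0, 13.2 and 18.3 CPM, so Bnc1tr/tr replicate 2 fell within the Bnc1+/+ range.

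Anaphase begins when Cdc20 and the E2 enzyme Ube2c help the anaphase-promoting complex to mark securin (Pttg1) for destruction, which frees separase (Espl1) to cut cohesin. The 4 genes had log2 fold changes of 0.17 to 0.53. Espl1 was at 40.3, 31.1 and 32.2 CPM in Bnc1+/+ and 59.0, 37.6 and 53.4 CPM in Bnc1tr/tr ovaries, with a log2 fold change of 0.53 (SE 0.18, edgeR adjusted p = 0.117). Bnc1tr/tr replicate 2 lay within the Bnc1+/+ range and the others above it. Ube2c was at 60.6, 52.1 and 45.9 against 57.2, 50.8 and 70.6 CPM, with a log2 fold change of 0.17 (SE 0.15, edgeR adjusted p = 0.523). Pttg1 varied little between ovaries of a genotype, at 35.4, 35.6 and 33.0 CPM in Bnc1+/+ and 40.4, 42.7 and 42.4 CPM in Bnc1tr/tr ovaries. The genotypes did not overlap, and Pttg1 was the only one of the 36 genes with its highest level in Bnc1tr/tr replicate 2. Its log2 fold change was 0.27 (SE 0.08), with an edgeR adjusted p of 0.0836.

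At centromeres and kinetochores, the log2 fold changes ran from 0.088 for Ndc80 to 0.38 for Cenpf over 7 genes. Cenpa, the histone H3 variant that defines the centromere, was at 32.9, 30.8 and 28.2 CPM in Bnc1+/+ and 36.2, 32.8 and 41.2 CPM in Bnc1tr/tr ovaries, with a log2 fold change of 0.26 (SE 0.11, edgeR adjusted p = 0.203). Cenpf, a large protein of the outer kinetochore, was at 31.8, 24.6 and 23.0 against 31.7, 30.3 and 41.2 CPM, with a log2 fold change of 0.38 (SE 0.16, edgeR adjusted p = 0.206). For Cenpa, Bnc1tr/tr replicates 1 and 3 lay above the Bnc1+/+ range, and for Cenpf only replicate 3 did. The subunits of the Ndc80 complex, which binds microtubules as a unit, had log2 fold changes of 0.09 for Ndc80, 0.20 for Nuf2, 0.33 for Spc24 and 0.27 for Spc25, each with a 95% interval that includes 0.

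Mitotic kinesins are motors that separate spindle poles, move chromosomes and build the midzone. The 5 genes (Kif11, Kif20a, Kif23, Kif2c, Kif4) had the lowest median of the role groups, at 0.13. Kif20a, which acts at the midzone in late mitosis, was at 57.2, 49.5 and 43.5 CPM in Bnc1+/+ and 49.2, 45.2 and 64.0 CPM in Bnc1tr/tr ovaries, with a log2 fold change of 0.08 (SE 0.15, edgeR adjusted p = 0.802). Kif23, a subunit of centralspindlin, was at 48.1, 41.7 and 39.6 against 54.0, 43.9 and 63.2 CPM, with a log2 fold change of 0.32 (SE 0.14, edgeR adjusted p = 0.223). Genes on the opposite strand overlap some of these exons, and whether the counting used strand is not given in the sources used here. Cdc23 shares 29.3% of the annotated exon bases of Kif20a, and smaller overlaps touch Kif4 (Pdzd11), Ube2c (Tnnc2), Ccna2 (Exosc9), Prc1 (Rccd1), Nusap1 (Oip5) and Cdc20 (Elovl1).

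Prc1, Nusap1, Anln and Ect2 bundle microtubules or position the cleavage furrow, and they had log2 fold changes of 0.04 to 0.29. Prc1, which crosslinks midzone microtubules, was at 62.2, 60.3 and 48.8 CPM in Bnc1+/+ and 55.7, 52.7 and 76.1 CPM in Bnc1tr/tr ovaries, with a log2 fold change of 0.11 (SE 0.16, edgeR adjusted p = 0.724). Ect2, the exchange factor that activates RhoA at the furrow, was at 15.8, 15.2 and 14.1 against 18.7, 14.3 and 22.1 CPM, with a log2 fold change of 0.29 (SE 0.16, edgeR adjusted p = 0.316). Only Bnc1tr/tr replicate 3 lay above the Bnc1+/+ range for Prc1, and replicates 1 and 3 did for Ect2.

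Top2a and Mki67, both common markers of proliferating cells, differed in how far the genotypes were apart. Top2a, the topoisomerase that untangles sister chromatids, was at 145, 135 and 110 CPM in Bnc1+/+ and 125, 117 and 187 CPM in Bnc1tr/tr ovaries, with a log2 fold change of 0.14 (SE 0.19, edgeR adjusted p = 0.705). Without Bnc1tr/tr replicate 3 its log2 fold change was -0.10. Mki67, the Ki-67 protein that coats mitotic chromosomes, was at 84.5, 70.8 and 66.8 against 92.9, 83.4 and 114 CPM, with a log2 fold change of 0.39 (SE 0.14, edgeR adjusted p = 0.141). Its Bnc1tr/tr replicate 2 lay just below the highest Bnc1+/+ ovary.

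Levels can be compared between genes only per length, here as CPM per kilobase of the longest principal coding transcript (GENCODE M21). In Bnc1+/+ ovaries the order began with Ube2c at 54.7 ± 7.61, Pttg1 at 36.6 ± 1.54 and Birc5 at 30.6 ± 4.57 CPM per kilobase (SD, n = 3), and ended with Cenpf at 2.38 ± 0.422 and Cenpe at 1.88 ± 0.252. The first 3 ranks were the same in Bnc1tr/tr ovaries, with Ube2c at 61.6 ± 10.4, Pttg1 at 44.1 ± 1.34 and Birc5 at 36.2 ± 7.25. Of the 35 pairs of neighbours in the Bnc1+/+ order, 27 were closer than 1 SD, so most ranks in the middle are not distinct. Bub1b moved from rank 7 (21.5 ± 3.16) to rank 4 (32.9 ± 5.80), ahead of Top2a, Ccnb2 and Cdc20. The subunits of the Ndc80 complex, which form it in equal numbers, differed in RNA level, from 4.90 for Ndc80 and 7.14 for Nuf2 to 7.87 for Spc25 and 12.6 for Spc24 CPM per kilobase in Bnc1+/+ ovaries.

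**Figure D3:**
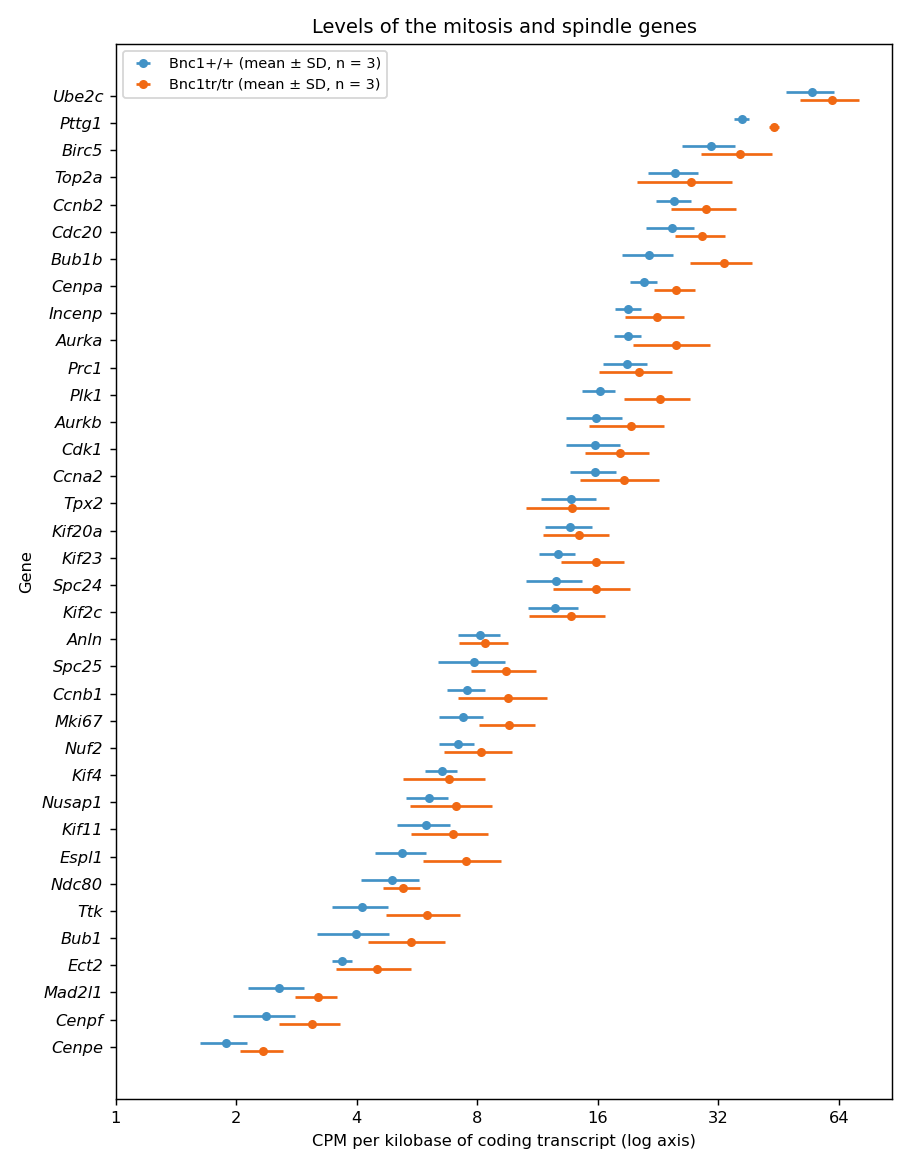
Level of the 36 genes in CPM per kilobase of coding transcript (x axis, log scale), ordered by the Bnc1+/+ mean (y axis). Points are means and bars SD of 3 Bnc1+/+ (blue) and 3 Bnc1tr/tr (orange) ovaries. Levels run from 1.88 for Cenpe to 54.7 for Ube2c in Bnc1+/+, and the bars of neighbouring genes overlap for most of the order.

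The composition of the group was examined by dividing each gene by the summed CPM of the 36 genes in the same ovary, which removes what the genes share. By this share, 6 genes were higher in every Bnc1tr/tr ovary than in every Bnc1+/+ ovary (Aurka, Plk1, Bub1b, Ttk, Espl1 and Mki67), where 4.25% of all genes tested divided by the same sum did not overlap in that direction. Another 8 genes were lower in every Bnc1tr/tr ovary (Tpx2, Ube2c, Ndc80, Kif20a, Kif2c, Kif4, Prc1 and Anln), where the share of all genes tested was 17.5%. The sum itself had a higher mean in Bnc1tr/tr (1637 CPM) than in Bnc1+/+ ovaries (1363 CPM), so dividing by it lowers other genes there. Shares of the 36 genes also add up to the whole, so a rise of some forces a fall of others. Neither background is therefore a like reference for the 6 and 8 genes. Bub1b held 5.98, 5.67 and 5.70% of the sum in Bnc1+/+ replicates 1, 4 and 7 and 8.65, 7.23 and 6.44% in Bnc1tr/tr replicates 1, 2 and 3. Kif20a held 3.76, 3.60 and 3.66% against 3.03, 3.33 and 3.31%. Bnc1+/+ replicates 1, 4 and 7 had Bub1b to Top2a ratios of 0.625, 0.579 and 0.618, and Bnc1tr/tr replicates 1, 2 and 3 had 1.12, 0.838 and 0.666. The ratios of Bub1b to Bub1 (5.87, 5.22 and 6.49 against 8.26, 6.24 and 5.35) and of Espl1 to Top2a (0.277, 0.231 and 0.293 against 0.472, 0.322 and 0.286) overlapped between the genotypes. The ratios were not planned. Bub1b and Espl1 have the largest log2 fold changes of the 36 genes (0.61 and 0.53), and that of Top2a is small (0.14). A higher mean ratio to Top2a in Bnc1tr/tr ovaries thus follows from the choice of genes. All 3 ratios were highest in Bnc1tr/tr replicate 1 and not in replicate 3, the ovary with the highest summed level. In a fit scaled to the sum of the 36 genes in place of TMM, added after the data were seen, 0 of 36 genes were called, where 6.58% of all genes tested were. In that fit 0 of 36 genes had an unadjusted p under 0.05 with edgeR, and likewise 0 with DESeq2 and limma-voom. The lowest adjusted p was 0.411, for Bub1b at a log2 fold change of 0.36. The SE of the 36 genes in that edgeR fit ran from 0.22 for Ccnb2 to 0.25 for Spc25. Yet Ccnb2 held 2.79 ± 0.098% of the sum in Bnc1+/+ and 2.79 ± 0.059% in Bnc1tr/tr ovaries (SD, n = 3 each). These tests draw part of each gene's spread from all genes tested, which were here scaled to the sum. The fit could therefore hardly call a difference in composition, and the separations between 3 ovaries and 3 were not tested otherwise.

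**Figure D4:**
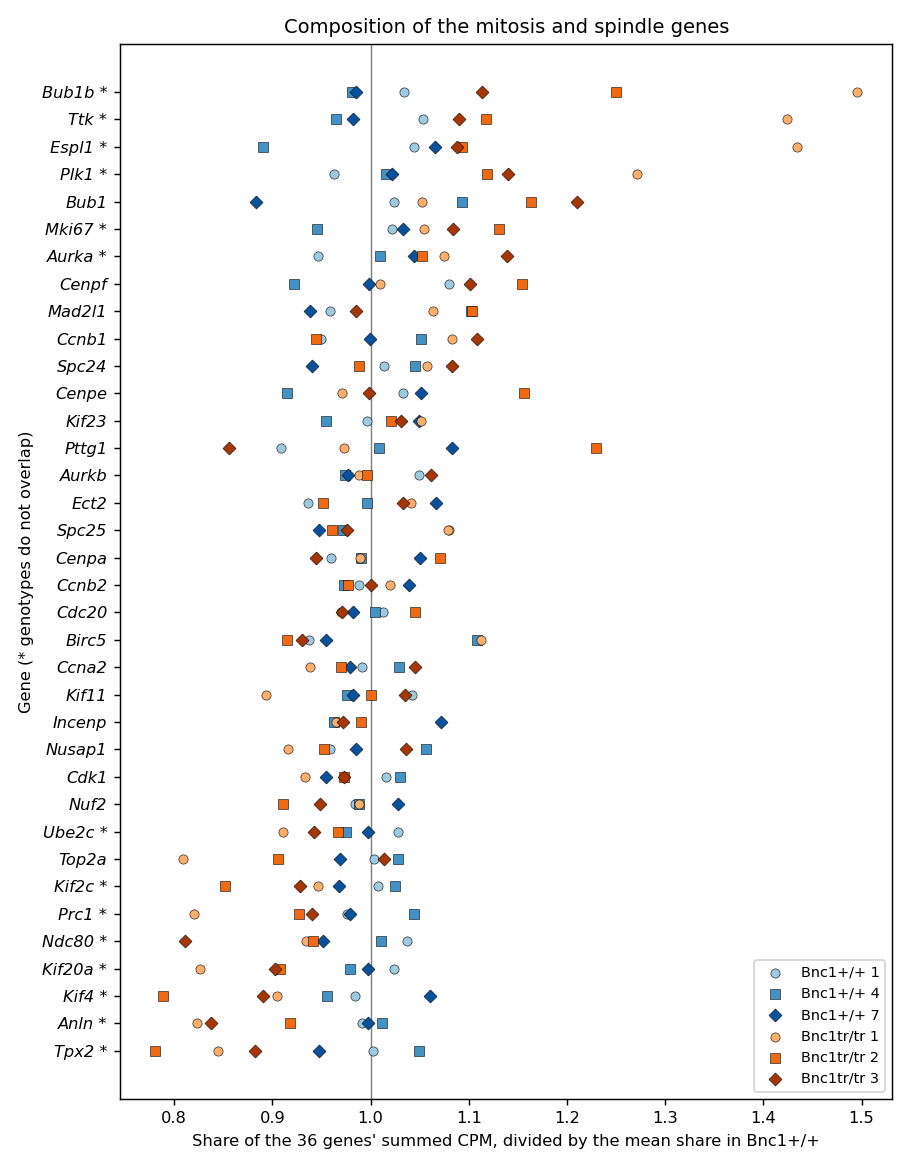
Share of each gene in the summed CPM of the 36 genes, divided by its mean share in Bnc1+/+ ovaries (x axis, linear), with genes ordered by the ratio of the genotype means (y axis) and a mark per ovary. Asterisks mark the 14 genes whose genotypes do not overlap, 6 higher and 8 lower in Bnc1tr/tr. Bub1b, Espl1 and Ttk lie farthest to the right, each with Bnc1tr/tr replicate 1 (light orange circles) highest.

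Other genes of the cell cycle were taken from lists by role. Of 197 such genes tested, 164 had a log2 fold change above 0 (52.6% of all genes tested), 5 rose and 1 fell by the edgeR test, where 2.88% of all genes tested were called higher and 4.19% lower. The share called higher was thus near the background. None of 24 other mitotic kinases and regulators was called (median 0.23, 21 above 0), none of 30 other kinetochore and centromere subunits (median 0.31, 28 above 0) and none of 30 other spindle, kinesin and cytokinesis genes (median 0.23, 29 above 0). Bnc1tr/tr replicate 3 was the highest ovary for 20, 21 and 26 genes of these lists, respectively. Every Bnc1tr/tr ovary lay above every Bnc1+/+ ovary for 5, 11 and 5 of their genes (15.0% of all genes tested). The 15 subunits of the anaphase-promoting complex that receives Cdc20 and Ube2c had a median log2 fold change of -0.0024, with 7 above 0, 0 called and 2 highest in Bnc1tr/tr replicate 3.

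Among 25 regulators of G2/M transcription, 19 had a log2 fold change above 0. For 11 of the 25, every Bnc1tr/tr ovary lay above every Bnc1+/+ ovary (15.0% of all genes tested). Only E2f2, a transcription factor that activates cell cycle genes, was called. It was at 15.4, 15.0 and 13.2 CPM in Bnc1+/+ and 29.2, 27.8 and 31.5 CPM in Bnc1tr/tr ovaries, where it rose by a log2 fold change of 1.02 (SE 0.10, edgeR adjusted p = 0.0027). All 3 Bnc1tr/tr ovaries were close together and well above the Bnc1+/+ ovaries. Foxm1, which binds CHR promoters together with Mybl2 in the MuvB complex, was at 52.2, 49.0 and 44.3 against 62.7, 48.7 and 66.1 CPM (log2 fold change 0.29, SE 0.13, edgeR adjusted p = 0.221). Mybl2 was at 25.5, 27.3 and 21.1 against 37.9, 27.2 and 36.4 CPM (log2 fold change 0.46, SE 0.15, edgeR adjusted p = 0.118). Foxm1 and Mybl2 were chosen after their values were seen, and in both genes Bnc1tr/tr replicate 2 lay within the Bnc1+/+ range.

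Of 15 G1 cyclins, CDKs and CDK inhibitors, 0 rose and 1 fell. Cdkn1b, the inhibitor p27 that holds cells out of the cycle, was at 203, 212 and 222 CPM in Bnc1+/+ and 91.6, 131 and 105 CPM in Bnc1tr/tr ovaries, and it fell by 0.96 on the log2 scale (SE 0.13, edgeR adjusted p = 0.0071). The genotypes were far apart, as they were for E2f2. Of 39 DNA replication genes, 2 rose, where 2.88% of all genes tested were called higher. In this list 38 genes had a log2 fold change above 0 (median 0.31). For 21 genes the genotypes did not overlap, with Bnc1tr/tr higher (15.0% of all genes tested). Cdt1, which loads the replicative helicase at origins, was at 20.5, 22.4 and 19.7 against 33.8, 29.0 and 32.4 CPM (log2 fold change 0.60, SE 0.10, edgeR adjusted p = 0.0147). Pold1, the catalytic subunit of DNA polymerase delta, was at 72.2, 66.5 and 65.9 against 94.9, 80.7 and 98.3 CPM (log2 fold change 0.42, SE 0.10, edgeR adjusted p = 0.0442). Of 19 condensin and cohesin subunits, 2 rose: Smc4 of condensin, with a log2 fold change of 0.50 (SE 0.12, edgeR adjusted p = 0.0437), and Smc3 of cohesin, with 0.32 (SE 0.07, edgeR adjusted p = 0.0439). The calls of Smc4 and Smc3 ended with any of the 6 ovaries left out, that of Smc3 also without the filter (edgeR adjusted p = 0.0775), that of Pold1 with any ovary but Bnc1tr/tr replicate 2 and that of Cdt1 with any but Bnc1tr/tr replicates 1 and 2. Their log2 fold changes with an ovary left out were 0.40 to 0.57 for Smc4, 0.29 to 0.34 for Smc3, 0.36 to 0.50 for Pold1 and 0.55 to 0.66 for Cdt1. The call of Cdkn1b ended without Bnc1+/+ replicate 4 (edgeR adjusted p = 0.0522), while E2f2 was called under all 12 alternatives.

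Marker lists of ovarian cell types moved between these ovaries as well, and their part in the levels of the mitosis and spindle genes was not tested. Rose and fell here count genes called by the edgeR test. Of all genes tested, 2.88% were called higher and 4.19% lower. Corpus luteum markers, of cells that have left the cycle, fell for 9 of 11 genes, with summed levels of 23643 to 28402 CPM in Bnc1+/+ and 7461 to 12877 CPM in Bnc1tr/tr ovaries. Endothelium markers fell for 6 of 8 genes, with sums of 631 to 837 against 416 to 459 CPM. Granulosa cell markers rose for 2 of 14 genes, with sums of 5574, 6364 and 5072 CPM in Bnc1+/+ replicates 1, 4 and 7 against 8286, 5427 and 7385 CPM in Bnc1tr/tr replicates 1, 2 and 3. As for the summed level of the 36 genes, Bnc1tr/tr replicates 1 and 3 were the highest ovaries and Bnc1+/+ replicate 7 and Bnc1tr/tr replicate 2 the lowest. By single genes, the 14 markers were split, with 8 log2 fold changes above 0 and 6 below. Bnc1tr/tr replicate 3 was the highest ovary for 3 of the 14 markers.

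Oocyte markers were called higher for 5 of 18 genes (2.88% of all genes tested). Of the 18 log2 fold changes, 15 were above 0 and 3 below, with a median of 0.57. Summed levels of these markers were 896 to 1131 CPM in Bnc1+/+ and 1692, 1103 and 1625 CPM in Bnc1tr/tr replicates 1, 2 and 3. Bnc1tr/tr replicate 1 was at or above replicate 3 for 10 of 18 oocyte markers, near the share of all genes tested (49.2%). Among the 36 mitosis and spindle genes this held for 4, namely Birc5, Bub1b, Ttk and Espl1. Oviduct epithelium markers, which a trace of adjoining oviduct can carry, had no gene called of 9 tested, but their sum was 920 CPM in Bnc1tr/tr replicate 3 and 283 to 461 CPM in the other 5 ovaries, with all 9 highest in that replicate. Bnc1+/+ replicate 7 had the lowest sum of the granulosa cell (5072 CPM), oocyte (896 CPM) and oviduct (283 CPM) lists. No marker was at 0 in every ovary. Of the remaining lists, theca cell markers were called higher for 1 of 6 genes (2.88% of all genes tested). In either direction, 0 of 10 macrophage, 0 of 7 lymphocyte and 0 of 4 erythroid markers tested were called (7.06% of all genes tested).

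**Figure D5:**
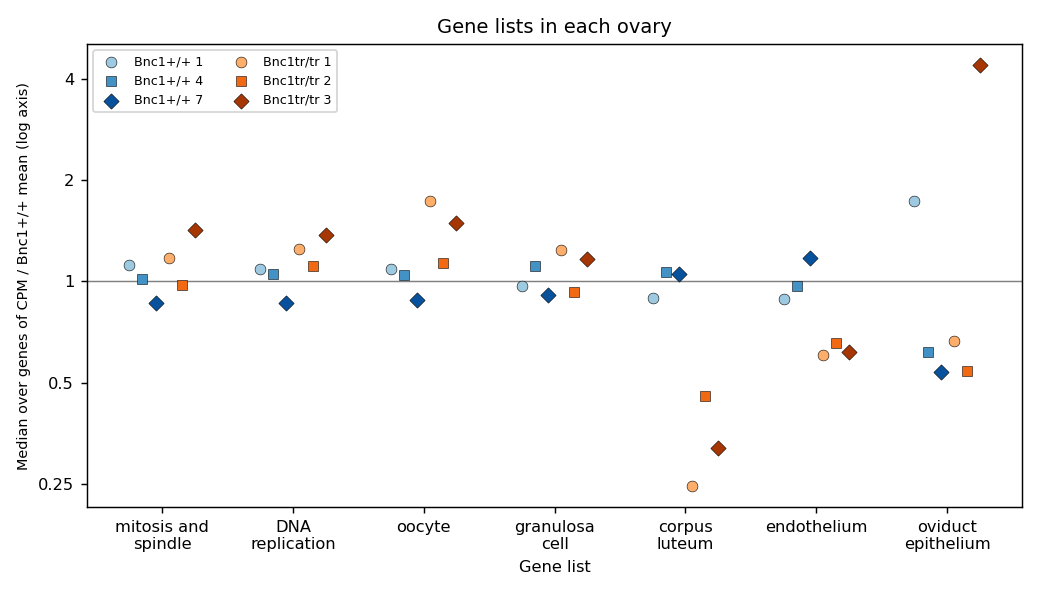
Median over the genes of a list of the CPM divided by the Bnc1+/+ mean (y axis, log scale) in each ovary, for the 36 mitosis and spindle genes and for lists of DNA replication genes and cell type markers (x axis). For mitosis and spindle genes the medians run from 0.864 in Bnc1+/+ replicate 7 to 1.42 in Bnc1tr/tr replicate 3 and the genotypes overlap, whereas corpus luteum and endothelium markers are lower in all 3 Bnc1tr/tr ovaries. Oviduct markers stand highest in Bnc1tr/tr replicate 3.

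Alternatives moved the count of called genes from 0 to at most 3 of 36. With library size in place of TMM, Plk1, Bub1b and Pttg1 were called, where 8.90% of all genes tested were. That scaling moved the median of all genes from 0.018 to 0.12 and the share of higher among all calls from 40.7% to 64.4%, and the 36 genes stood 0.25 above the median of all genes under both scalings. With the DESeq2 test Plk1, Bub1b and Espl1 were called (12.5% of all genes tested), and so they were by edgeR without Bnc1tr/tr replicate 2 (6.40% of all genes tested). Leaving out any of the other 5 ovaries gave 0 called of 36 genes.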

How the data were processed

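Total RNA was extracted with TRIzol from 3 Bnc1+/+ and 3 Bnc1tr/tr ovary samples and sequenced by Ion Proton. Raw counts per gene and sample were deposited, whole numbers without normalization, and these were the only values used. The aligner, the counting tool, its strand setting and the annotation are not given in the sources used here. The submitters' processing notes name the builds mm10 and Sscrofa10.2 without their roles.

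Of 31717 genes with a count, 19423 passed edgeR's filterByExpr (minimum count 10). Counts were scaled with TMM and compared by genotype with edgeR 4.0.16 (glmQLFit and glmQLFTest, two-sided, R 4.3.3), with Benjamini-Hochberg adjustment over all genes tested and a threshold of 0.05. The script was tested on simulated data. SE values were derived from the F statistic, and intervals are at 95%. Levels per length used the longest APPRIS principal transcript of GENCODE M21 on GRCm38, and promoters came from RefSeq (GRCm38.p6).

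The 36 genes and all lists were chosen with earlier results of these data known. Values in every ovary were given for the gene with the highest mean CPM and the gene with the largest absolute log2 fold change in each role group. From the other lists, up to 3 called genes with a mean of at least 1 CPM were named. Their values in every ovary were given except for Smc4 and Smc3, which have only the fold change, SE and adjusted p. Bub1b fills both places in its group. Tpx2, Ttk, Pttg1, Foxm1 and Mybl2 were added after their values were seen. Alternatives were DESeq2 1.42.0 (size factors, and its test), library size, no filter, at least 10 counts in every ovary, limma-voom (limma 3.58.1) and leaving out each ovary in turn. Scaling to the summed counts of the 36 genes was added after seeing the data.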

Additional observations from a re-analysis of the deposited data

How the results depend on the processing

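No paired analysis was possible because the genotypes share only replicate number 1. The study's methods say that littermates were compared, but the labels tie no ovary to a litter. The 36 mitosis and spindle genes called higher numbered 3 with library size, 3 with the DESeq2 test and 1 without a filter, and 0 with DESeq2's size factors, with at least 10 counts in every ovary and with limma-voom. Other cell cycle genes called higher numbered 26 with library size and 25 with the DESeq2 test, against 5. All genes tested gave 1112 higher calls with library size, and 1080 higher and 1340 lower calls with the DESeq2 test, against 559 and 813. Leaving out an ovary gave 0 to 3 of the 36 genes called higher, 1 to 13 other cell cycle genes called higher and 0 to 1 lower, and 94 to 620 higher and 226 to 662 lower calls over all genes. The median log2 fold change of the 36 genes was 0.13 (without Bnc1tr/tr replicate 3) to 0.37 (without Bnc1tr/tr replicate 2). With limma-voom Tpx2 stood at -7.0e-05. With an ovary left out, log2 fold changes that turned ran from -0.17 to 0.17 for Tpx2, -0.040 to 0.19 for Ndc80, -0.086 to 0.17 for Kif20a, -0.021 to 0.28 for Kif2c, -0.098 to 0.23 for Kif4, -0.075 to 0.21 for Prc1, -0.079 to 0.11 for Anln and -0.10 to 0.26 for Top2a. The cause of these changes was not tested, and a fit without an ovary has fewer samples. Of 504 single-gene values (42 genes, 12 alternatives), 458 kept direction and side of the threshold, 10 gained a call, 23 lost one and 13 turned. With 3 ovaries a genotype, 95% intervals had a median width of 0.74 on the log2 scale.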
